A study of Rattus norvegicus with 6 samples.

Results

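The 5 genes described here encode subunits of ionotropic glutamate receptors and their main postsynaptic scaffold. They are Grin1 (ENSRNOG00000011726), Grin2a (ENSRNOG00000033942), Grin2b (ENSRNOG00000008766), Gria1 (ENSRNOG00000045816) and Dlg4 (ENSRNOG00000018526). They were chosen by identifier, as named genes of the excitatory synapse, from the 31998 genes of the count table, and all 5 were among the 13938 genes that passed the filter on low counts. The study exposed neurons to palmitic acid, a saturated fatty acid, and sequenced their RNA. Hippocampal neurons came from Wistar rat embryos at day 17 of gestation, received 10 µM cytosine arabinoside, an inhibitor of dividing cells, on day 3, and were used from day 12 in vitro. The treated group (3 libraries) received palmitic acid at 200 µM carried on bovine serum albumin, and the vehicle group (3 libraries) received the vehicle alone. Cultures labelled as specimens N1, N4 and N5 each gave 1 library per treatment. The sources used here do not state how long the exposure lasted or how many animals make a specimen. P-values of fits with specimen and treatment refer to the spread left after both terms, within these cultures. For palmitic acid against vehicle, that spread is how far the treatment difference varied from culture to culture. In the comparisons of specimens with each other, the p-values do not measure the spread between cultures.

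NMDA receptors are tetramers that need the obligatory GluN1 subunit (Grin1) together with GluN2 subunits, such as GluN2A (Grin2a) and GluN2B (Grin2b). In the rodent forebrain GluN2B predominates in early life, and GluN2A rises as synapses mature, which shortens the receptor current. AMPA receptors, of which GluA1 (Gria1) is a subunit, carry most fast excitatory current, and PSD-95 (Dlg4) holds both receptor classes at the postsynaptic density.

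Library totals ran from 15875411 to 18241773 counts. Levels are given as CPM, a gene's read count scaled to the TMM-adjusted total of the tested genes in its library, on which 1 read was worth 0.0547 to 0.0649 CPM. The libraries of N4 stood apart. On the leading principal component (79.5% of the variance in log2 CPM) they lay at 110 (vehicle) and 115 (palmitic acid), and the other 4 libraries lay between -64.6 and -50. The tests that do not compare N4 itself are therefore also given without it. Markers of neurons and glia were not analysed here, since the deposited identifiers were not paired with symbols, so the labelled cell type was not checked. In these bulk libraries a change in the number of cells of a type and a change in RNA per cell cannot be told apart.

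Grin1 was read at 244, 446 and 267 CPM in the vehicle libraries of N1, N4 and N5, and at 286, 367 and 271 CPM in their palmitic acid libraries. N4 was highest under either treatment, and the vehicle range (319 ± 111 CPM, SD, n = 3) enclosed the palmitic acid range (308 ± 51.9 CPM, n = 3). The transcript of this obligatory subunit lay above 96.7% of tested genes in mean CPM, a scale that is not corrected for gene length.

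Grin2a was read at 10.6, 12.9 and 36.2 CPM with vehicle and 10.3, 13.6 and 31.4 CPM with palmitic acid, in N1, N4 and N5. N5 was highest in both groups, by a wide margin, and the groups overlapped (19.9 ± 14.2 and 18.4 ± 11.3 CPM, SD, n = 3 each). The highest library held 3.5 times the level of the lowest. Over the 6 libraries the SD of log2 CPM was 0.8, above that of 90.1% of the 9735 genes with a mean of at least 10 CPM. These CPM values rest on 177 to 632 reads per library.

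Grin2b was read at 46.3, 44.9 and 50.5 CPM with vehicle and 57, 57.9 and 50.7 CPM with palmitic acid. Every palmitic acid library lay above every vehicle library, although the N5 libraries differed by under 1 CPM (47.2 ± 2.91 against 55.2 ± 3.89 CPM, SD, n = 3 each). Its SD of log2 CPM was 0.15, higher than in only 13.1% of those 9735 genes. That SD covers both treatments and cultures. Averaged over the treatments, Grin2b stood at 51.6, 51.4 and 50.6 CPM in N1, N4 and N5. Grin2a, the gene of the other GluN2 subunit measured, stood at 10.5, 13.2 and 33.8 CPM. Differences between these cultures were thus small for Grin2b and large for Grin2a.

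Gria1 was read at 193, 158 and 183 CPM with vehicle and 228, 126 and 174 CPM with palmitic acid. N1 was highest and N4 lowest in each group, and the vehicle values lay inside the palmitic acid range (178 ± 18.4 and 176 ± 50.9 CPM, SD, n = 3 each). Dlg4, the PSD-95 gene, was read at 415, 482 and 538 CPM with vehicle and 468, 438 and 539 CPM with palmitic acid. N5 was highest in each group and the groups overlapped (478 ± 61.6 and 481 ± 51.9 CPM). The SD of log2 CPM was 0.29 for Gria1 and 0.15 for Dlg4, above 48.5% and 14.2% of the 9735 genes.

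**Figure D1:**
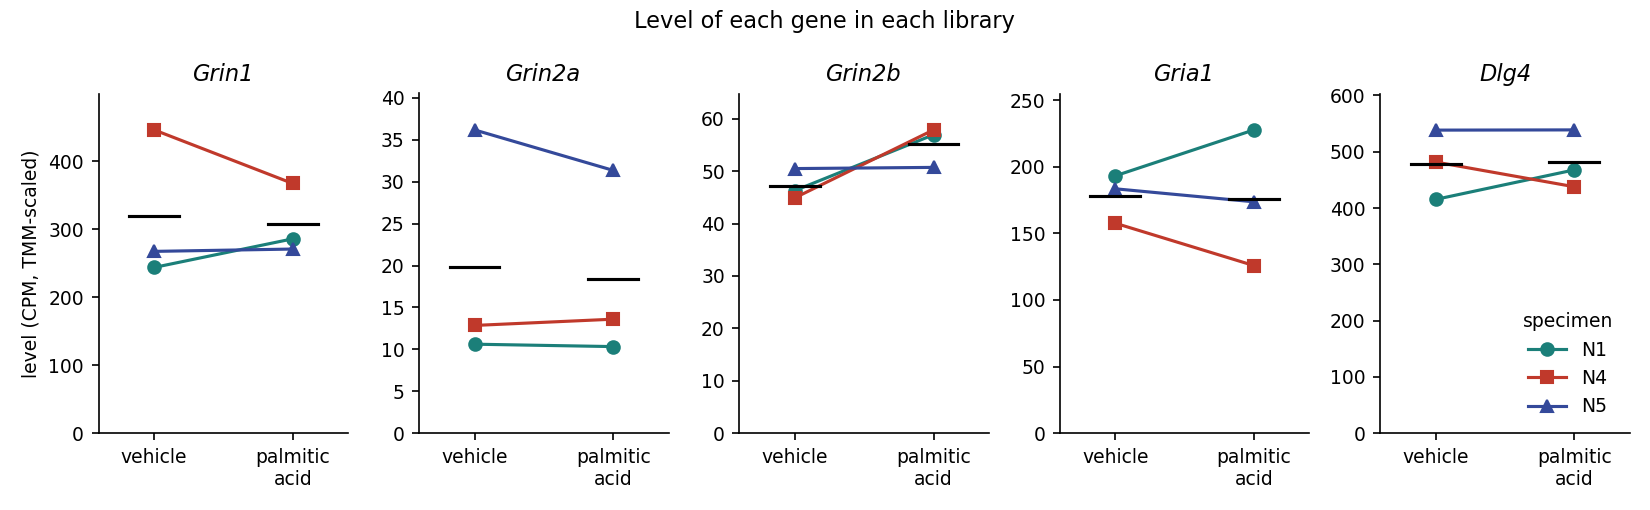
Level of each gene (CPM on TMM-scaled totals, linear axes from 0) in the vehicle and palmitic acid libraries, with lines joining libraries of a specimen and black bars at group means (n = 3). Grin2a is set apart by N5 (36.2 and 31.4 CPM), Grin1 by N4 (446 and 367 CPM), and Grin2b has its 3 palmitic acid values above its 3 vehicle values.

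Palmitic acid was then compared with vehicle, the study's own question, for each gene. None of the 5 genes passed the paired test, with the specimen as a block (edgeR quasi-likelihood test, Benjamini-Hochberg adjusted p between 0.938 and 0.995). The background was also 0% called (0 of 13938 genes, 493 at an unadjusted p under 0.05). DESeq2 with the same terms, run on all genes with a read and not only the filtered ones, called 6 genes, 2 higher and 4 lower. On all genes with a read edgeR called 2 higher and 1 lower, and limma on the filtered genes called 0. None of the genes called was a member. The members' median log2 fold change was -0.01, and that of all tested genes -0.0041.

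Grin2b had the members' largest log2 fold change for palmitic acid, 0.22 ± 0.13 (SE), a fold of 1.17 with a 95% interval of 0.936 to 1.46 (edgeR, adjusted p = 0.938). The within-specimen log2 differences were 0.3 in N1, 0.37 in N4 and 0.01 in N5, so the difference rested on N1 and N4. Grin2b was the single member higher in 3 of 3 specimens, a pattern shared by 15.8% of tested genes (10.8% were lower in all 3), and the single member whose groups did not overlap, as in 3.32% of tested genes. Without N4 the log2 fold change was 0.15 (edgeR, adjusted p = 0.891), and without N5 it was 0.31 (adjusted p = 1).

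For the other GluN2 gene, Grin2a, the log2 fold change was -0.06 ± 0.15 (SE), with a 95% interval of -0.41 to 0.3. Without N4 it was -0.13 (edgeR, adjusted p = 0.904). Its within-specimen differences were -0.04, 0.08 and -0.21 in N1, N4 and N5. Counting error alone gave 95% intervals of -0.35 to 0.27 in N1, -0.19 to 0.36 in N4 and -0.37 to -0.04 in N5 (exact Clopper-Pearson, covering counting error only). The lower Grin2a reading in N5 therefore exceeded counting error in that pair, while the others did not.

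Grin1, Gria1 and Dlg4 differed in opposite directions in N1 and N4. In N1 their palmitic acid libraries were higher by 0.23, 0.24 and 0.17 on the log2 scale. In N4 they were lower, with differences of -0.28, -0.33 and -0.14. In N5 the differences were 0.02, -0.08 and 0.0011. Each pair is 1 library per treatment, so how much 2 cultures of 1 specimen differ under the same treatment was not measured. The intervals for counting error excluded 0 for these 3 genes in N1 and N4, and for Gria1 in N5 (-0.15 to -0.0076).

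Averaged over specimens these opposite readings nearly cancelled. The log2 fold changes were -0.01 ± 0.14 (SE) for Grin1, -0.06 ± 0.14 for Gria1 and 0.01 ± 0.13 for Dlg4. The 95% intervals ran from -0.35 to 0.32, from -0.39 to 0.28 and from -0.29 to 0.32. Fold changes inside these limits, 0.787 to 1.25 for Grin1 for example, were not distinguishable from no change here. Without N4 the log2 fold changes of Grin1 and Gria1 turned positive, at 0.12 and 0.08 (edgeR, adjusted p = 0.892 and 0.936), and that of Dlg4 was 0.09. Without N1, that of Dlg4 turned to -0.07.

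All of the members' differences lay within the middle 95% of the 9735 genes with a mean of at least 10 CPM in the same specimen. That range ran from -0.86 to 0.4 in N1, from -0.85 to 1.15 in N4 and from -0.35 to 0.35 in N5. Grin2b in N1 (0.3) came nearest to an upper limit.

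**Figure D2:**
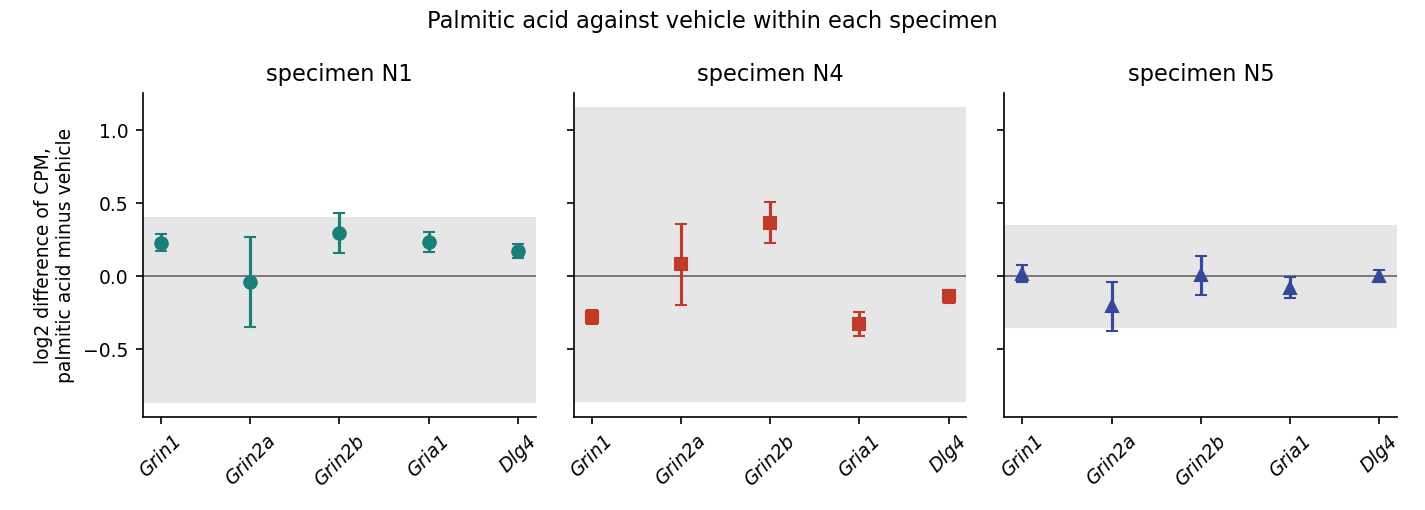
Log2 difference of CPM, palmitic acid minus vehicle, for each gene within specimens N1, N4 and N5, with bars for 95% counting intervals and a grey band for the middle 95% of the 9735 genes with a mean of at least 10 CPM. Grin1, Gria1 and Dlg4 lie above 0 in N1 and below 0 in N4, and Grin2b lies at 0.3, 0.37 and 0.01.

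The ratio of Grin2a to Grin2b reads does not depend on library scaling, but neither count was corrected for transcript length, so the ratio compares libraries and does not give relative abundance. It was 0.229 with vehicle and 0.181 with palmitic acid in N1 (177 to 772 and 181 to 998 reads). In N4 it was 0.286 and 0.235 (198 to 692 and 246 to 1047 reads). In N5 it was 0.717 and 0.618 (632 to 882 and 573 to 927 reads). The N5 ratios stood above all the others, and within each specimen the palmitic acid library had the lower ratio.

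As a share of the reads of both genes, Grin2a took 18.7% with vehicle (exact 95% Clopper-Pearson interval 16.2% to 21.3%) and 15.4% with palmitic acid (13.3% to 17.5%) in N1. The shares were 22.2% (19.6% to 25.1%) and 19% (16.9% to 21.3%) in N4. In N5 they were 41.7% (39.2% to 44.3%) and 38.2% (35.7% to 40.7%). The intervals of N5 did not meet those of N1 or N4, and the vehicle and palmitic acid intervals met within every specimen.

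The log2 ratio differed by -0.34, -0.28 and -0.21 (palmitic acid minus vehicle) in N1, N4 and N5, a mean of -0.28 ± 0.06 (SD, n = 3 pairs). This corresponds to a Grin2a to Grin2b ratio of 0.824 times the vehicle ratio. The exact two-sided sign-flip permutation test gave p = 0.25, the smallest value it can give with 3 pairs. This test could therefore not reach 0.05, whatever the differences, and its p-value does not decide the question. Counting intervals of the single pairs were -0.68 to -0.00018 in N1, -0.6 to 0.03 in N4 and -0.43 to 0.0012 in N5 (conditional exact, 95%). The lower ratio had different components: in N1 and N4 Grin2b was read higher while Grin2a differed little, and in N5 Grin2a was read lower and Grin2b differed by 0.01. Without N4 the mean was -0.28.

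**Figure D3:**
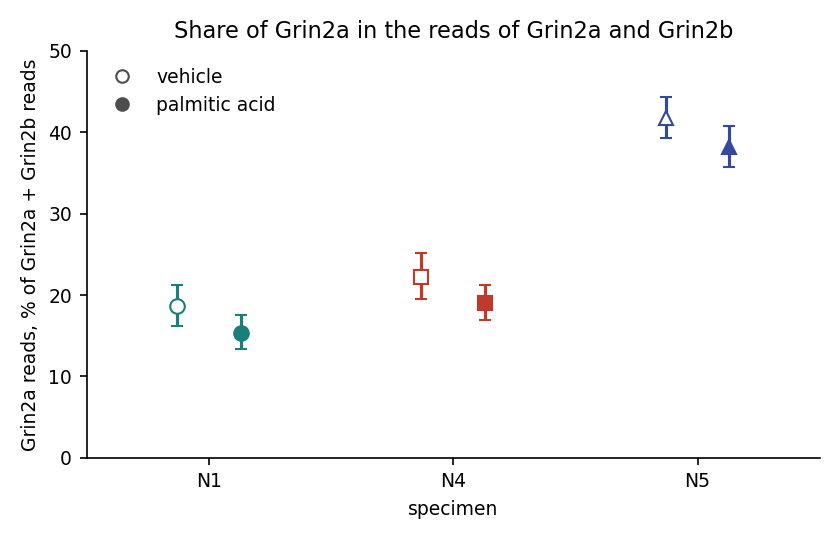
Share of Grin2a in the reads of Grin2a and Grin2b in each library (percent, open symbols vehicle, filled symbols palmitic acid), with exact 95% Clopper-Pearson intervals. N5 lies at 41.7% and 38.2%, above 15.4% to 22.2% in the libraries of N1 and N4, and the filled symbol is the lower of each pair.

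The differences between specimens were larger than those between treatments for Grin2a. With treatment as a covariate, Grin2a was 3.22-fold higher in N5 than in N1 (log2 fold change 1.69 ± 0.18 SE, edgeR, adjusted p = 0.0172). It was 2.55-fold higher in N5 than in N4 (1.35 ± 0.18 SE, adjusted p = 0.00227). N4 and N1 were not separated (0.34 ± 0.18 SE, adjusted p = 0.203), so the order of the GluN2A transcript was N5 above N4 and N1. Each specimen enters with 2 libraries of different treatment, so these tests describe these cultures only. Their spread is that left after specimen and treatment, not a spread between cultures. The call of N5 against N1 was lost without the vehicle library of N5 (1.56, adjusted p = 0.0653) and held without N4 (1.68, adjusted p = 0.00156).

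Grin1, the GluN1 gene, was 1.53-fold higher in N4 than in N1 (log2 fold change 0.62 ± 0.17 SE, edgeR, adjusted p = 0.0351). It was lower in N5 than in N4 (-0.6 ± 0.17 SE, adjusted p = 0.0378), and N5 and N1 were not separated (0.02 ± 0.17 SE, adjusted p = 0.957). The call of N4 against N1 was lost without either library of N1 or of N5 (log2 fold changes 0.43 to 0.79, adjusted p from 0.0534 to 0.232). The call of N5 against N4 was lost without either library of N5 (-0.59 and -0.61, adjusted p = 0.242 and 0.262).

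Gria1, the GluA1 gene, went the other way in N4, being lower than in N1 (-0.58 ± 0.17 SE, a fold of 0.671, edgeR, adjusted p = 0.0459). It was not separated between N5 and N4 (0.34 ± 0.17 SE, adjusted p = 0.18) or N5 and N1 (-0.24 ± 0.17 SE, adjusted p = 0.476). The N4 against N1 call was lost without the palmitic acid library of N1 (-0.36, adjusted p = 0.328) or of N4 (-0.37, adjusted p = 0.113), without either library of N5 (adjusted p = 0.0774 and 0.0909), and with DESeq2 size factors (-0.55, adjusted p = 0.0506). Without the vehicle library of N4, Gria1 was called higher in N5 than in N4 (0.52, adjusted p = 0.0434).

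Grin2b did not separate the cultures, with log2 fold changes of -0.0085, -0.0094 and -0.02 in the comparisons of N4 with N1, N5 with N4 and N5 with N1 (edgeR, adjusted p = 0.972, 0.971 and 0.965). The widest of the 95% intervals ran from -0.41 to 0.37. Dlg4 was read 0.29 ± 0.15 (log2, SE) higher in N5 than in N1 and 0.23 ± 0.15 higher in N5 than in N4, and neither passed (adjusted p = 0.349 and 0.295). Its difference between N4 and N1 was 0.06 ± 0.15 (adjusted p = 0.798). Fitted without N4, the N5 against N1 log2 fold changes were 0.02 for Grin1, -0.03 for Grin2b, -0.24 for Gria1 and 0.29 for Dlg4 (edgeR, adjusted p = 0.898, 0.907, 0.206 and 0.131).

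The numbers of members called are to be read against the whole table. In N4 against N1, 1 of 5 members was higher and 1 lower, where 13.4% of all tested genes were higher and 19.1% lower. In N5 against N4 the members again gave 1 higher and 1 lower, against 20.7% and 14% of tested genes. In N5 against N1, 1 of 5 was higher and 0 lower, against 2.25% and 0.667% (314 and 93 genes). These last counts moved far with the libraries used, to 1503 and 970 without N4 and to 120 and 15 without the palmitic acid library of N5. The members' median absolute log2 fold changes were 0.34, 0.34 and 0.24 in these comparisons, and those of all tested genes were 0.45, 0.46 and 0.26.

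**Figure D4:**
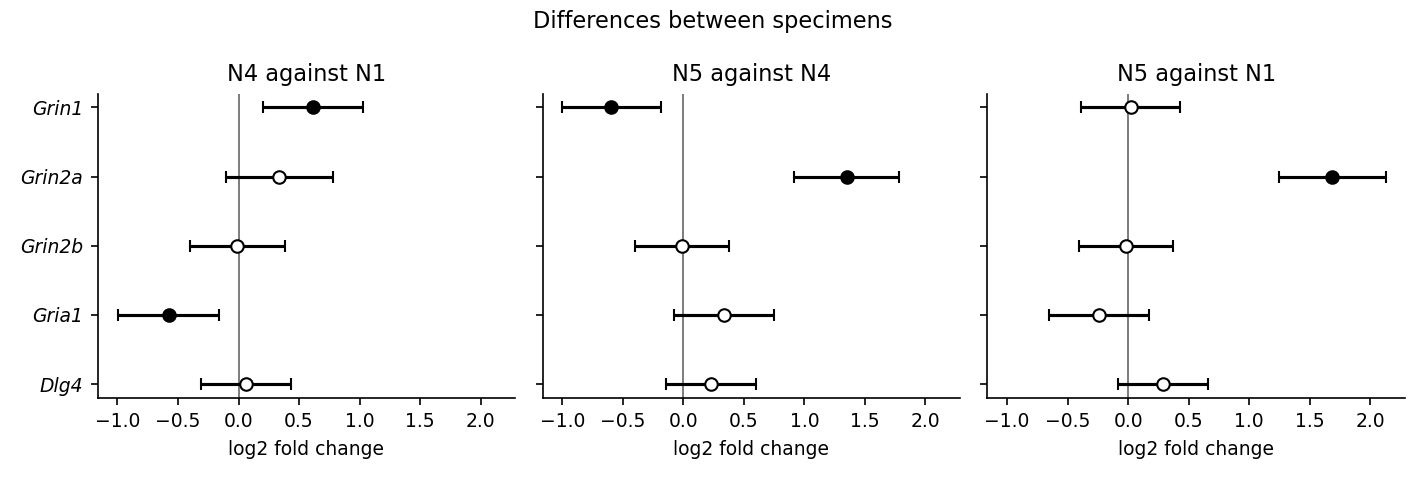
Log2 fold change of each gene between specimens with 95% intervals (edgeR, treatment as a covariate, 2 libraries per specimen), filled where the adjusted p was under 0.05. Grin2a lies at 1.35 and 1.69 in the comparisons of N5 with N4 and N1, and Grin2b lies near 0 in all 3.

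Ratios to Grin1 within a library were formed next, as a description free of library scaling and likewise not corrected for length. The Gria1 to Grin1 read ratio was 0.792 (vehicle) and 0.796 (palmitic acid) in N1, 0.353 and 0.342 in N4, and 0.686 and 0.641 in N5. This ratio of a GluA1 to a GluN1 transcript was lowest in N4 and differed little between the treatments of a specimen. Log2 differences with palmitic acid were 0.007, -0.04 and -0.1. The Dlg4 to Grin1 ratio was 1.7 and 1.64 in N1, 1.08 and 1.19 in N4, and 2.01 and 1.99 in N5. It was again lowest in N4, where the shared denominator Grin1 was highest (446 and 367 CPM). Dlg4 itself was lowest in N4 only with palmitic acid (438 CPM). With vehicle it was at 482 CPM in N4 and 415 CPM in N1.

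The Grin2b to Grin1 ratio was 0.19 and 0.199 in N1, 0.101 and 0.158 in N4, and 0.189 and 0.187 in N5. Its vehicle value was low in N4, where Grin1 was at 446 CPM and Grin2b at 44.9 CPM, near its 46.3 CPM in N1. With palmitic acid the ratio in N4 was higher by 0.65 (log2), against 0.07 in N1 and -0.01 in N5. In that N4 pair Grin2b differed by 0.37 and the denominator Grin1 by -0.28. The Grin2a to Grin1 ratio was 0.0435 and 0.0361 in N1, 0.0288 and 0.037 in N4, and 0.135 and 0.116 in N5. For this GluN2A ratio N5 stood above the other specimens under both treatments.

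The gene most like each member was taken by Pearson's r of log2 CPM over the 6 libraries, which share 3 specimens. These genes are known here by identifier only. The closest to Grin1 was ENSRNOG00000026944 (r = 0.998) and the closest to Gria1 was ENSRNOG00000016937 (r = 0.999). For Grin2a it was ENSRNOG00000001770 (r = 0.995), for Grin2b ENSRNOG00000037715 (r = 0.985), and for Dlg4 ENSRNOG00000005569 (r = 0.99). Most of these genes were read at low levels. The range over libraries was 0.54 to 3.5 CPM for the gene nearest Dlg4 and 0.72 to 2.18 for that nearest Grin2a. It was 1.98 to 8.11 CPM for Grin1, 5.46 to 6.69 for Grin2b and 94.2 to 127 for Gria1. Each r is the highest among all tested genes outside the members, so a high value is no sign of a shared function. An r above 0.95 was reached by 199 genes for Grin1 (1.43% of tested genes) and 216 for Gria1 (1.55%), and by 57 for Grin2a (0.409%), 33 for Dlg4 (0.237%) and 12 for Grin2b (0.0861%).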

How the data were processed

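The authors deposited raw read counts per Ensembl gene for 6 libraries. Per the labels' protocols, a stranded mRNA kit was used on 500 ng of RNA and paired 125-base reads were taken, while the series' design text speaks of ribosomal depletion and 2 cultures per group. The tools listed, per the submitters' processing notes, are featureCounts, STAR 2.7.1a, Salmon 0.14.1, edgeR, DESeq2 and Trimmomatic 0.39. The sources used here do not state which of these made the count table, nor the strand setting or genome build, so reads shared with overlapping genes may be misassigned. Symbols came with the list of members, and the GRCr8 reference table held 0 Ensembl identifiers to match them to, so the lists of other receptor, scaffold and cell type genes were not tested and no coordinates or lengths are given.

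Tests used R 4.3.3 with edgeR 4.0.16 (TMM, filterByExpr with a minimum count of 10, quasi-likelihood F test, Benjamini-Hochberg over all 13938 genes, threshold 0.05, specimen plus treatment). The SE is the log2 fold change divided by the square root of F. CPM uses TMM-scaled totals of the tested genes, and log2 CPM a prior count of 2. Specimen labels pair the libraries, and deviations of paired libraries from group means correlated at 0.771, 0.89 and 0.855. Libraries of different specimens were not correlated in this way, so these values alone do not show that the pairing is right. No libraries were copies (chi-square per degree of freedom at least 8.31, where sampling noise gives about 1). Alternatives were no block, DESeq2 1.42.0, limma 3.58.1, other size factors or filters, no treatment term, 0.5 added reads, and libraries or specimens left out. DESeq2 was run on all genes with a read, without filterByExpr. N5 against N1 without N4 was added after seeing the data. The fits were also run on counts simulated from the fitted paired model. That simulation set the same treatment effect in every specimen, so it cannot show how the fits behave where specimens differ in direction. The members, gene lists and tests were chosen with earlier results of these data known. The named genes are the 5 members and, for each, the gene with the highest r over the 6 libraries.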

Additional observations from a re-analysis of the deposited data

How the results depend on the processing

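No member was called for palmitic acid under any alternative run. Without the replicate block the log2 fold changes were -0.05 for Grin1, -0.11 for Grin2a, 0.22 for Grin2b, -0.02 for Gria1 and 0.0090 for Dlg4, and 0 genes were called, as in the paired fit. Grin2b ranged from 0.13 to 0.33 in its 21 alternatives; with every pair difference above 0, leaving out a specimen could not turn its sign. The mean log2 difference of the Grin2a to Grin2b ratio ranged from -0.31 to -0.25 in its 5 alternatives (exact permutation p from 0.25 to 0.6). With a specimen left out the sign-flip p was 0.5, the smallest value that test allows with the pairs that remain. The sign of the mean was fixed by 3 negative pairs and is no sign of stability.

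Over all genes, palmitic acid calls went from 0 higher and 0 lower to 2 and 4 with DESeq2, also run without filterByExpr. They were 2 and 1 in edgeR with no filter. With libraries or specimens left out they ranged from 0 to 15 higher and 0 to 8 lower. N5 against N1 (314 and 93) gave 496 and 220 with no treatment term, 622 and 255 with DESeq2, 523 and 168 with no filter, and 120 to 1503 and 15 to 970 with libraries left out. The ranges with libraries left out were 893 to 2800 higher for N4 against N1, and 1846 to 3244 higher and 696 to 2602 lower for N5 against N4. Where libraries were left out and the block kept, the residual degrees of freedom were fewer. The counts between specimens moved up as well as down, and the cause was not tested.

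Signs turned only for results of at most 0.06 in size (log2). For palmitic acid, Dlg4 was -0.0039 with DESeq2, -0.0046 with its size factors and -0.016 with no filter. Grin2b in N4 against N1 was 0.0033 with DESeq2, 0.022 with its size factors and 0.0020 with the filter of 1 CPM in 3 libraries. It was 0.0030 in N5 against N1 with those size factors and 0.0013 in N5 against N4 with no filter. With libraries or specimens left out and the block kept, palmitic acid values ranged from -0.13 to 0.12 for Grin1, -0.16 to 0.020 for Grin2a, -0.20 to 0.080 for Gria1 and -0.070 to 0.087 for Dlg4. Without the block they ranged from -0.23 to 0.26 for Grin1, -0.74 to 0.62 for Grin2a, -0.25 to 0.14 for Gria1 and -0.083 to 0.073 for Dlg4. Among these, reversed values without the block were 0.26 and 0.031 for Grin1 (vehicle N4 or palmitic acid N5 left out). For Grin2a they were 0.62, 0.17 and 0.048 (vehicle N5, palmitic acid N1 or palmitic acid N4). For Gria1 they were 0.14 and 0.046 (palmitic acid N4 or vehicle N1), and for Dlg4 -0.082 and -0.083 (vehicle N1 or palmitic acid N5). Between specimens, Grin2b ranged from -0.12 to 0.14 (N4 against N1), -0.19 to 0.16 (N5 against N4) and -0.20 to 0.14 (N5 against N1), Dlg4 from -0.073 to 0.17 (N4 against N1) and Grin1 from -0.16 to 0.21 (N5 against N1). Grin2a had the fewest reads of the members.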
